A study of Homo sapiens with 12 samples.

Results

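The numbered zinc finger genes are the genes whose symbol is ZNF followed by digits only. They were chosen here by that symbol and by a mean raw count of 500 or more over 12 RNA-seq libraries, which left 318 of the 377 such genes in a table of 8579 genes. The count threshold used the level of each gene over all libraries and no comparison between groups. ZNF25, ZNF711 and ZNF391 lay just inside it, with mean counts of 502, 502 and 503. ZNF132, ZNF460 and ZNF793 lay just outside it, with 495, 488 and 488. All 318 genes passed the filter on low counts, as did all 8579 genes of the table.

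The libraries came from A375, an established human melanoma cell line with an activating BRAF mutation, harvested after 72 h of treatment. SEL201 cells received 2.5 µM of SEL201, an inhibitor of MNK1 and MNK2, the kinases that phosphorylate the translation factor eIF4E. OTX015 cells received 50 nM of OTX015, an inhibitor of the BET bromodomain proteins, which bind acetylated histones and promote transcription. COMBO cells received both agents at these doses, and UNTREATED cells carry the treatment label DMSO, the drug solvent. There are 3 libraries per group, with numbers 1 to 3, all from the same cell line, and no label states that they are separate cultures. The spread that p-values measure here is thus between libraries and may be technical.

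Most zinc finger proteins of this family carry a tandem array of C2H2 fingers, each a short loop folded around a zinc ion that reads a few bases of DNA. Many also carry a KRAB domain at the amino-terminal end, which binds the corepressor TRIM28 and through it brings histone H3K9 methylation to the bound site. KRAB zinc finger genes are known for silencing transposable elements, and they arose by repeated local duplication, which has left them in clusters that are densest on chromosome 19. Members without KRAB include activators, architectural factors and proteins that bind RNA.

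By a residue pattern in the longest coding frame of the GENCODE v29 annotation, 148 of the 318 genes had a KRAB motif and lay on chromosome 19, 74 had the motif and lay on another chromosome, and 96 had no such motif. Chromosome 19 held 173 of the 318 genes, or 54.4%. The median number of C2H2 fingers was 11, with 12 in genes with the KRAB motif and 8 in genes without it. ZNF208 had the most, 36, and 7 genes had none by this pattern: ZNF330, ZNF365, ZNF503, ZNF703, ZNF720, ZNF738 and ZNF839. Levels are given as CPM, each library's counts scaled to a common total over the genes of the table. Per kilobase of annotated exon, the genes' median level was 18.4 CPM, against 16.6 CPM for all 8500 genes with a length. The 318 genes had passed the count threshold and the 8500 had not been held to it. The 2 medians are thus not a like comparison, and no higher level of these genes is read from them. Among the 318, ZNF330, a nucleolar protein, was the highest at 138 CPM per kilobase, and ZNF519 the lowest at 1.78.

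The column totals ran from 15146071 to 24111541 counts over the genes used here and are not the sequencing depth. Raw mean counts of the 318 genes reached 8155, for ZNF263. Of 11 melanocyte and melanoma markers 7 were measured (MITF, PMEL, MLANA, S100B, PAX3, GPNMB and MLPH). Their summed level was 663 to 697 CPM with SEL201, between 652 and 680 CPM with OTX015, between 634 and 643 CPM with COMBO and between 789 and 862 CPM in UNTREATED libraries, while 5 of 6 fibroblast markers summed to 118 to 136 CPM with SEL201, 98.9 to 105 CPM with OTX015, 86.4 to 93.3 CPM with COMBO and 138 to 184 CPM in UNTREATED libraries. Of the fibroblast markers, LUM, PDGFRB, DCN and COL1A1 had lower means with COMBO than in UNTREATED libraries, LUM with 7.85 against 45.9 CPM. PDGFRA had a higher mean, with 25.2 against 17.9 CPM. The melanocyte markers also did not all differ in the same direction. GPNMB averaged 213 CPM with COMBO and 443 CPM in UNTREATED libraries, while S100B averaged 103 CPM with COMBO and 54.1 CPM in UNTREATED libraries, and PAX3 averaged 151 CPM with COMBO and 130 CPM in UNTREATED libraries. Of 5 immune markers only LYZ was measured, at 29.3 to 32.4 CPM with SEL201, 21.3 to 24.3 CPM with OTX015, 19.5 to 22.6 CPM with COMBO and 39.2 to 50.2 CPM in UNTREATED libraries. Of 4 endothelial markers only KDR was measured, and its COMBO range of 101 to 157 CPM overlapped the UNTREATED range of 81.0 to 142 CPM. The part of any of these lists in the results below was not tested. In bulk RNA, fewer cells of a kind and less RNA per cell cannot be told apart. Same-numbered libraries of different groups deviated in the same way, so results that depend on it are also given with the number as a replicate block in the fit. In 31 of the 318 genes, 10% or more of the 100-base windows of the longest coding transcript also occurred in transcripts of another gene, and counts of these genes are uncertain because reads could be split or shared. Among the 231 genes with no shared window, 51 were called higher and 31 lower with OTX015, and 69 higher and 44 lower with COMBO.

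As a group, the zinc finger genes rose more often than they fell when OTX015 was present, and the changes were small. Against UNTREATED, 79 were called higher and 37 lower with OTX015, and 101 higher and 53 lower with COMBO (edgeR quasi-likelihood test, adjusted p under 0.05 over all genes). These are 24.8% and 11.6% of the 318 with OTX015, where 23.3% of all genes were called higher and 24.7% lower. With COMBO they are 31.8% and 16.7%, where 28.3% of all genes were called higher and 29.6% lower. Shares of higher calls were thus near those of all genes, and the shares of lower calls were below them. Among all 6061 genes with a mean count of 500 or more, 27.9% were called higher and 24.2% lower with OTX015, and 32.9% higher and 29.6% lower with COMBO.

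With SEL201 alone, 16 genes were called higher and 8 lower, which are 5.03% and 2.52% of the 318. The corresponding shares of all genes were 10.1% higher and 11.1% lower, and of genes with a mean count of 500 or more they were 12.7% higher and 11% lower. With the replicate block, 44 were called higher and 27 lower, where 1541 of all 8579 genes were called higher and 1639 lower. These SEL201 counts moved by over 1.5 times when single libraries were left out: 8 higher and 3 lower were called without SEL201 replicate 2, 9 and 4 without SEL201 replicate 1, 8 and 5 without UNTREATED replicate 1, 9 and 3 without UNTREATED replicate 2, and 9 and 5 without UNTREATED replicate 3. Without OTX015 replicate 1, 10 were called higher, and without OTX015 replicate 2, 5 were called lower.

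**Figure D1:**
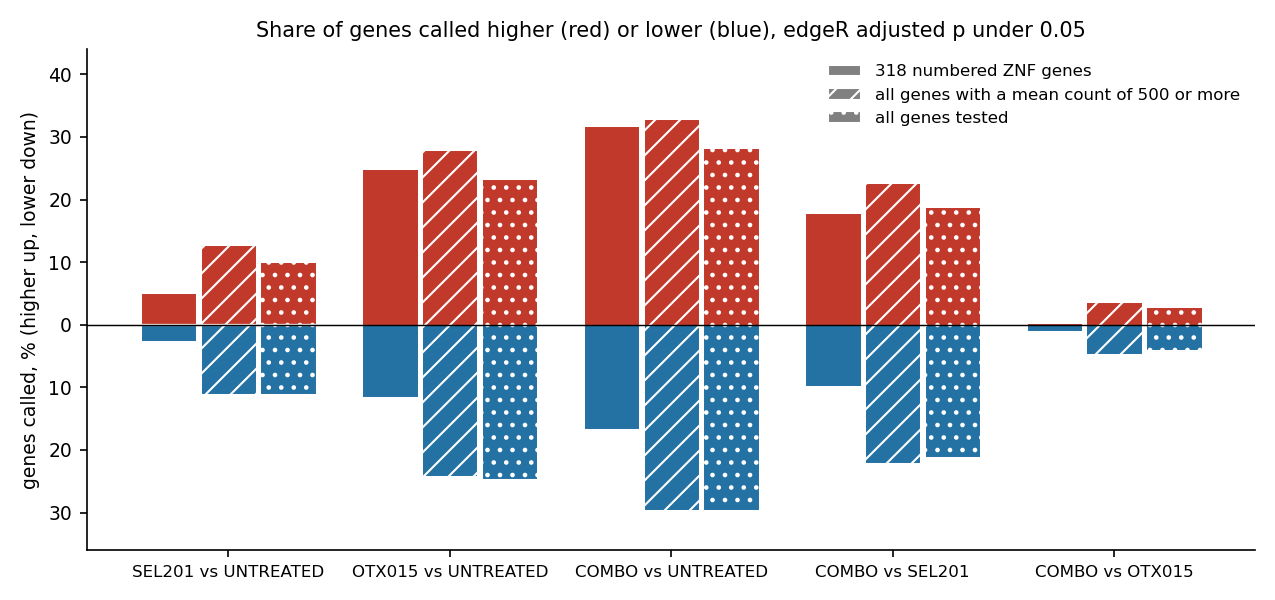
Share of genes called higher (red, upward) and lower (blue, downward) in 5 comparisons, in percent, for the 318 numbered ZNF genes (plain bars), all genes with a mean count of 500 or more (hatched) and all genes tested (dotted). For OTX015 against UNTREATED the ZNF bars reach 24.8% higher and 11.6% lower, and for SEL201 against UNTREATED 5.03% and 2.52%.

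The median log2 change of the 318 genes was 0.02 with SEL201, 0.06 with OTX015 and 0.05 with COMBO, while the median of all genes was 0.00 in each of these comparisons. The median absolute log2 change was 0.128 with OTX015 and 0.156 with COMBO, against 0.198 and 0.257 over all genes. ZNF618 and ZNF469 alone changed more than 2-fold among the genes called in any comparison with UNTREATED, both downward and both with COMBO, where 758 of all genes passed that size. The 3 treated groups share the UNTREATED libraries. Called in none of the 3 comparisons were 152 of the 318 genes, and 3314 of all 8579 genes.

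Summed over the 318 genes, the share of all counts lay between 3.86 and 3.92% with SEL201, between 3.90 and 3.96% with OTX015 and between 3.90 and 3.95% with COMBO, against 3.78 to 3.85% in UNTREATED libraries. No treated library overlapped with the UNTREATED ones. The separation was widest in the genes with a KRAB motif on chromosome 19, which took between 1.46 and 1.51% of counts with SEL201, between 1.55 and 1.59% with OTX015 and between 1.55 and 1.58% with COMBO, against 1.41 to 1.46% in UNTREATED libraries. Here the SEL201 and UNTREATED ranges met, and the OTX015 and COMBO libraries stood above both. Genes with the motif on other chromosomes took 1.01 to 1.04% with OTX015 and up to 1.02% in UNTREATED libraries, which overlap. Genes without the motif took 1.37 to 1.41% with SEL201, 1.33 to 1.36% with OTX015 and 1.31 to 1.34% with COMBO, against 1.36 to 1.38% in UNTREATED libraries, so the COMBO libraries lay below the UNTREATED ones without overlap.

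Most of the excess of higher over lower calls lay in 1 of the 3 classes of gene. Of the 148 genes with a KRAB motif on chromosome 19, 47 were called higher and 6 lower with OTX015, and 60 higher and 12 lower with COMBO, with median log2 changes of 0.12 and 0.13. Of the 74 with the motif on other chromosomes, 12 were called higher and 12 lower with OTX015, and 20 higher and 16 lower with COMBO, with medians of 0.02 and 0.03. Of the 96 without the motif, 20 were called higher and 19 lower with OTX015, and 21 higher and 25 lower with COMBO, with medians of -0.01 and 0.00. With SEL201 the counts were 6 higher and 5 lower, 4 and 1, and 6 and 2 in the same order of classes. In that order, the OTX015 calls were 31.8% higher and 4.05% lower, 16.2% and 16.2%, and 20.8% and 19.8% of each class. Shares of all genes to compare were 23.3% higher and 24.7% lower with OTX015. With COMBO those shares were 28.3% and 29.6%, and with SEL201 10.1% and 11.1%. The classes were set after values had been seen, and no test was made of the difference between them. No class was tested against all genes.

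The 6 lower calls of the chromosome 19 class with OTX015 became 2 without UNTREATED replicate 1 or without OTX015 replicate 2, and 3 without UNTREATED replicate 2 or without OTX015 replicate 1. Its 12 lower calls with COMBO became 5 without UNTREATED replicate 1 and 6 without COMBO replicate 2. Its higher calls ran from 38 to 51 with OTX015 and from 48 to 60 with COMBO over fits that left out 1 library. In the class without the motif, the 20 higher calls with OTX015 became 13 without OTX015 replicate 2.

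**Figure D2:**
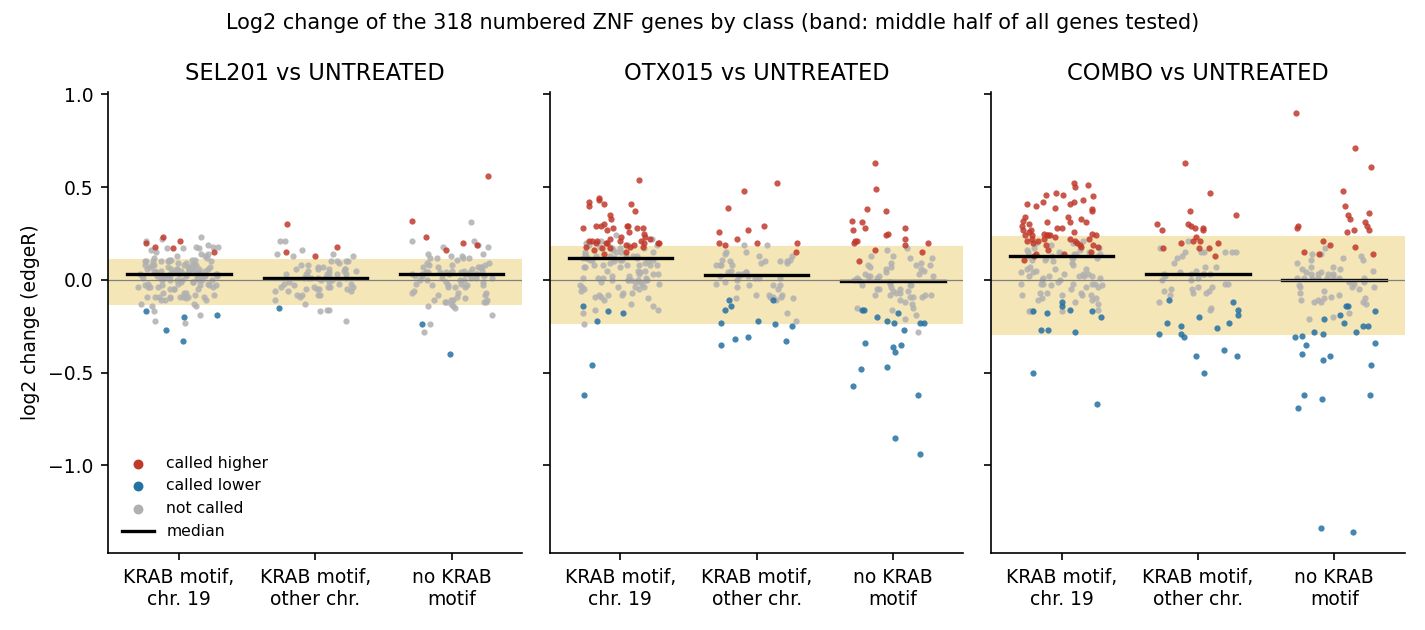
Log2 change of each of the 318 genes (points) against UNTREATED in 3 panels, by class, with called genes in red (higher) or blue (lower), the class median as a black line, and the middle 50% of all genes as a yellow band. In the OTX015 and COMBO panels the genes with a KRAB motif on chromosome 19 have medians of 0.12 and 0.13, and the genes without the motif have medians of -0.01 and 0.00.

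Along chromosome 19 the genes form runs of close neighbours, here defined as 5 or more of the 318 with at most 3 other protein-coding genes between each and the next in GENCODE v29. The run from ZNF101 to ZNF254 held 29 of them, 27 with a KRAB motif. With OTX015, 15 of these 29 were called higher and 0 lower, and with COMBO 19 higher and 1 lower, with median log2 changes of 0.16 and 0.22. The run from ZNF577 to ZNF331 held 30, of which 11 were called higher and 1 lower with OTX015, and 12 higher and 2 lower with COMBO. In the run from ZNF264 to ZNF256, 8 of 26 were called higher and 0 lower with OTX015, and 9 higher and 3 lower with COMBO. For all genes, the shares were 23.3% higher and 24.7% lower with OTX015, and 28.3% higher and 29.6% lower with COMBO. No run, here or below, was tested against these shares.

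Toward the start of the order, 3 short runs had more genes called higher than lower. From ZNF559 to ZNF561, 3 of 6 were called higher with OTX015 and with COMBO, where 1 was called lower. From ZNF653 to ZNF700, 2 of 7 were called higher with OTX015 and 3 with COMBO, and from ZNF844 to ZNF443 2 of 5 and 3 of 5, with 0 lower in both runs. Other runs had few calls or calls in both directions. From ZNF566 to ZNF570, 2 of 14 were called higher and 0 lower with either treatment, and from ZNF283 to ZNF180 2 of 12 were called higher and 1 lower with OTX015, and 3 higher and 2 lower with COMBO. The 6 genes from ZNF579 to ZNF581, which have no KRAB motif, had 0 higher and 2 lower calls with OTX015, and 1 higher and 2 lower with COMBO. Of the 5 genes from ZNF302 to ZNF792, 1 was called higher and 3 lower with OTX015, and 1 higher and 2 lower with COMBO. A run on chromosome 7, from ZNF736 to ZNF92, held 6 genes with a KRAB motif, and 4 were called higher and 0 lower both with OTX015 and with COMBO. In that run, ZNF92 averaged 252 ± 3.24 CPM with OTX015, 266 ± 5.20 CPM with COMBO and 220 ± 5.04 CPM in UNTREATED libraries (SD, n = 3 each). The remaining runs lay outside chromosome 19. From ZNF786 to ZNF746 on chromosome 7, 1 of 6 genes was called higher and 2 lower with OTX015, and 2 higher and 3 lower with COMBO. From ZNF605 to ZNF268 on chromosome 12, 2 of 6 were called higher and 1 lower with either treatment, and from ZNF251 to ZNF16 on chromosome 8, 0 of 5 were called higher and 1 lower with either.

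**Figure D3:**
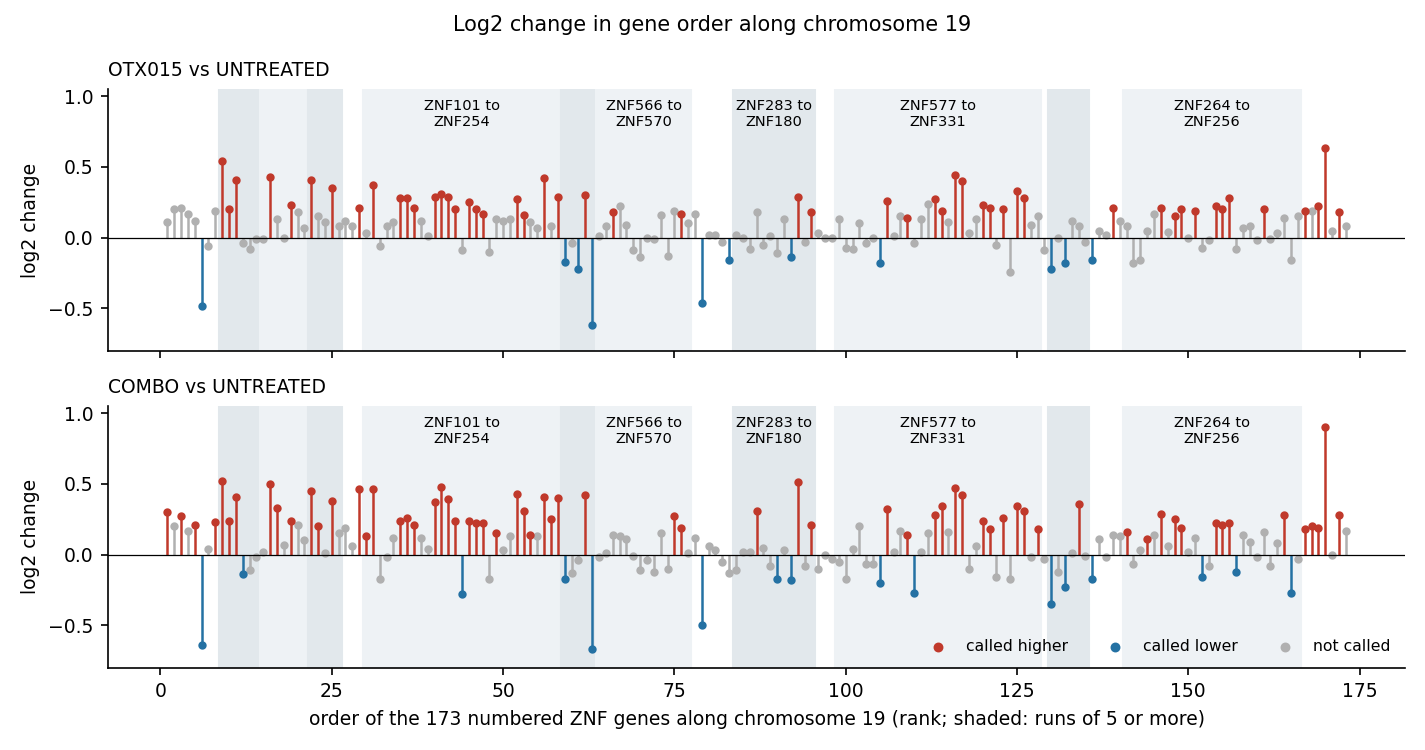
Log2 change of the 173 numbered ZNF genes on chromosome 19, in gene order (horizontal axis, rank), for OTX015 (top) and COMBO (bottom) against UNTREATED, with called genes in red or blue and runs of 5 or more shaded. From ZNF101 to ZNF254, 15 genes are called higher and 0 lower in the top panel, and 19 higher and 1 lower in the bottom panel.

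The promoters of the run from ZNF101 to ZNF254 had a stretch of 9 letters in common. RefSeq promoters (GRCh38.p14, 250 bases before to 50 after the annotated start) were matched by symbol for 276 of the 318 genes. The letters below are the 250 bases before the start, 5′ to 3′ on the gene's strand, with each TCCAATCAG in capitals. ZNF14 (chr19:19733113-19733362, minus strand), ZNF681 (chr19:23758892-23759141, minus strand) and ZNF714 (chr19:21081953-21082202, plus strand) are shown because they were called higher with OTX015 and with COMBO and belong to the run. ZNF445 (chr3:44477671-44477920, minus strand) is shown because it rose by 0.52 and 0.63 with these treatments and holds none of these letters.
ZNF14: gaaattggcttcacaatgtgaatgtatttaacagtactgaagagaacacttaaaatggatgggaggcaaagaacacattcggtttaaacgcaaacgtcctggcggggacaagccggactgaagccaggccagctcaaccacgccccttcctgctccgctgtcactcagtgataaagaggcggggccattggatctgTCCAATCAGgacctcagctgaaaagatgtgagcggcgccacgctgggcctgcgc
ZNF681: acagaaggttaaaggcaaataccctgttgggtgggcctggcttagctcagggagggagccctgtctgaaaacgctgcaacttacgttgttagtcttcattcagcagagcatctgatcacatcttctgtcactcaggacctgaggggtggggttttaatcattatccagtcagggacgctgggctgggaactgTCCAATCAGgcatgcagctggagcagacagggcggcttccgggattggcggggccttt
ZNF714: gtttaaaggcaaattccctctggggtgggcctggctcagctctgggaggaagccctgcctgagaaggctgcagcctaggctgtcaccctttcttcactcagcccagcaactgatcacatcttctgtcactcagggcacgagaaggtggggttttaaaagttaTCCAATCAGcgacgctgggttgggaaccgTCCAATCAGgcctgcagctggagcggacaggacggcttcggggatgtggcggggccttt
ZNF445: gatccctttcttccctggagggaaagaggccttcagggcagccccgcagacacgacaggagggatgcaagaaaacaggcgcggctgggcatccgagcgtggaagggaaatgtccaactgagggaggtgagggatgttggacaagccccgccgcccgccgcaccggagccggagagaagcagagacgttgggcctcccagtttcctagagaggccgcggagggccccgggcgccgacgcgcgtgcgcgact

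All 25 promoters found for the run held TCCAATCAG when both strands were searched, a stretch that contains the letters CCAAT of the CCAAT box. It was in 50 of the 276 promoters of the zinc finger genes (18.1%), in 0 of 26 from ZNF577 to ZNF331, in 4 of 6 from ZNF736 to ZNF92, and in 0.883% of all 27305 promoters in the table. The shorter CCAAT, which lies within it, was in 52.9% of the zinc finger promoters and 35.7% of all promoters. In the run, 37 matches were found, all on the gene's own strand, and they began a median of 59 bases before the start (24 to 88). Outside the run, 39 of 40 matches were on the gene's strand, a median of 82 bases before the start (23 to 233). The promoters of the run were also poorer in CG dinucleotides, with a median of 10, against 25 from ZNF577 to ZNF331, 22 in all 276 and 14 over all promoters.

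None of the 50 genes with TCCAATCAG was called lower against UNTREATED in any of the 3 comparisons. ZNF738, a gene of the run that was called lower with SEL201 and with COMBO, had no matched promoter and is not in these counts. Its SEL201 call (edgeR adjusted p = 0.04) was lost in 6 of the 12 fits that left out 1 library (adjusted p up to 0.14). With OTX015, 23 of the 50 were called higher, and with COMBO 31, with median log2 changes of 0.17 and 0.22. Of the 226 genes with a promoter and without these letters, 44 were called higher and 30 lower with OTX015, and 59 higher and 43 lower with COMBO, both with a median of 0.02. Outside the run, 8 of the 25 genes with the letters were called higher with OTX015 and 12 with COMBO, with medians of 0.15 and 0.20. Of these 25, the 14 on chromosome 19 had 2 higher calls with OTX015 and 6 with COMBO, with medians of 0.14 and 0.20. Over all genes, 23.3% were called higher and 24.7% lower with OTX015, and 28.3% higher and 29.6% lower with COMBO. With SEL201, 3 of the 50 were called higher, all 3 inside the run, where 10.1% of all genes were called higher and 11.1% lower. Genes with a KRAB motif on chromosome 19 and a promoter without the letters were called higher in 25 and lower in 6 of 96 cases with OTX015, and in 30 and 11 with COMBO. The letters were picked after the promoters and the values had been seen, so these counts are a description, and genes of a run share ancestry and sequence.

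**Figure D4:**
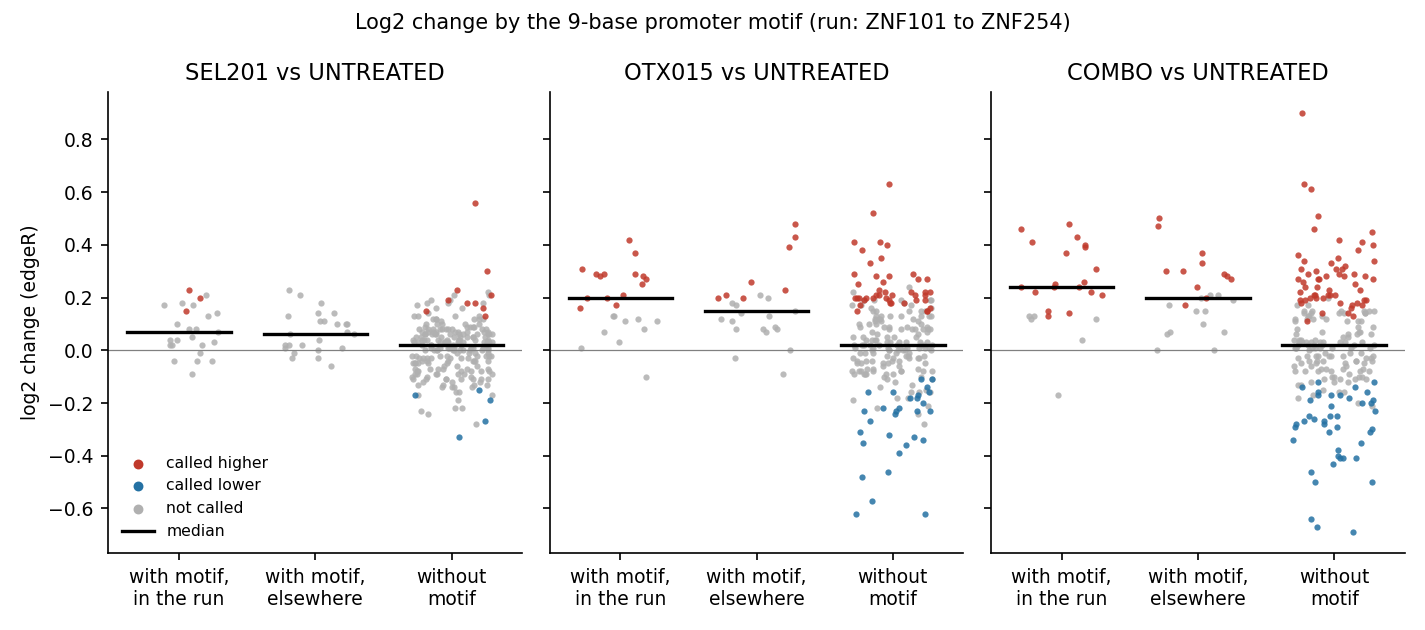
Log2 change against UNTREATED in 3 panels for the 276 genes with a promoter, split into 25 with the 9-base motif in the ZNF101 to ZNF254 run, 25 with it elsewhere and 226 without it, with called genes in red (higher) or blue (lower) and group medians as black lines. No gene with the motif is blue in any panel, and the medians with OTX015 are 0.20, 0.15 and 0.02.

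Within the run, ZNF14 had 80.9, 79.8 and 76.8 CPM in OTX015 libraries and 84.5, 86.7 and 81.0 CPM in COMBO libraries, against 61.7, 61.0 and 61.3 CPM in UNTREATED libraries. Every library of both groups lay above every UNTREATED one. The log2 change was 0.37 ± 0.07 with OTX015 (SE, edgeR adjusted p = 0.00036) and 0.46 ± 0.07 with COMBO (adjusted p = 3.6e-05). ZNF681 had 118, 133 and 121 CPM with OTX015, 125, 129 and 117 CPM with COMBO, and 95.1, 97.0 and 86.8 CPM in UNTREATED libraries. It rose by 0.42 with OTX015 and 0.41 with COMBO on the log2 scale, again without overlap. ZNF430, ZNF431, ZNF254 and ZNF730, chosen as examples after their values were seen, rose by 0.37, 0.39, 0.40 and 0.43 with COMBO. ZNF91 and ZNF93, known for silencing SVA and LINE-1 retrotransposons, changed less: ZNF91 was called higher with COMBO at 0.14 ± 0.05, and ZNF93 had a log2 change of 0.12 ± 0.07 (adjusted p = 0.17). The ZNF91 call was lost without UNTREATED replicate 1, UNTREATED replicate 3, COMBO replicate 2 or COMBO replicate 3 (adjusted p up to 0.13). ZNF738, which has no finger in the longest coding frame, was the member of the run that was called lower, with 106 ± 7.67 CPM in COMBO and 128 ± 6.90 CPM in UNTREATED libraries (SD, n = 3 each).

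The largest changes of all were falls in genes without a KRAB motif. ZNF618, whose protein binds the methylated-DNA reader UHRF2, had 361, 378 and 332 CPM in SEL201, 225, 223 and 214 CPM in OTX015, and 163, 161 and 169 CPM in COMBO libraries, against 436, 423 and 409 CPM in UNTREATED libraries. No library of any group overlapped with another group's, with COMBO lowest, then OTX015, SEL201 and UNTREATED. By edgeR, the change on the log2 scale was -0.24 ± 0.05 for SEL201 (SE, adjusted p = 0.0026), -0.94 ± 0.05 with OTX015 (adjusted p = 6.9e-09) and -1.36 ± 0.05 with COMBO (adjusted p = 6.7e-11), the last being 2.57-fold lower.

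ZNF469, in which mutations cause brittle cornea syndrome, had 47.3, 58.7 and 61.6 CPM in SEL201, 38.9, 39.3 and 44.4 CPM in OTX015, and 25.3, 25.5 and 37.4 CPM in COMBO libraries, against 73.1, 72.9 and 75.2 CPM in UNTREATED libraries. It fell by 0.85 with OTX015 and by 1.34 with COMBO on the log2 scale (adjusted p = 0.00012 and 1.2e-06). COMBO replicate 3 stood apart from the other two COMBO libraries and below all OTX015 ones. With SEL201 its log2 change of -0.40 ± 0.13 was called (adjusted p = 0.042), and it was lost without any of UNTREATED replicates 1 to 3, SEL201 replicates 1 and 2 or OTX015 replicates 1 and 2 (adjusted p up to 0.18).

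Further falls without a KRAB motif were those of ZNF629, ZNF358, ZNF710, ZNF395 and ZNF219. ZNF710 had 138, 150 and 142 CPM with COMBO and 230, 215 and 215 CPM in UNTREATED libraries, a log2 change of -0.62 ± 0.05 (adjusted p = 2.8e-07). ZNF358 had 70.5, 73.6 and 68.1 CPM with COMBO and 114, 107 and 110 CPM in UNTREATED libraries, a log2 change of -0.64 ± 0.08. These libraries did not overlap, nor did those of ZNF395, a factor known from hypoxia and interferon responses, at 160, 151 and 156 CPM with COMBO and 237, 247 and 235 CPM in UNTREATED libraries. ZNF395 shares 41.1% of its windows and ZNF358 17.4% with other transcripts, so their counts are uncertain. ZNF629 fell by 0.69 ± 0.13 with wide spread in each group, and ZNF219, a partner of the cartilage factor SOX9, fell by 0.57 ± 0.11 with OTX015 and by 0.43 ± 0.11 with COMBO.

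Some KRAB genes were also among the large falls. ZNF792 had 16.7, 26.1 and 26.8 CPM with OTX015 and 22.3 ± 3.09 CPM (SD, n = 3) with COMBO, against 35.8, 37.3 and 33.9 CPM in UNTREATED libraries, and it fell by 0.62 ± 0.15 and 0.67 ± 0.15 on the log2 scale. ZNF605 fell by 0.50 ± 0.06 with COMBO, to 73.6 ± 1.55 CPM, against 104 ± 3.54 CPM in UNTREATED libraries (SD, n = 3 each). ZNF573 was called lower in all 3 comparisons, at -0.33 with SEL201, -0.46 with OTX015 and -0.50 with COMBO. Its SEL201 call was lost without UNTREATED replicate 2 or SEL201 replicate 1 (adjusted p up to 0.073).

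**Figure D5:**
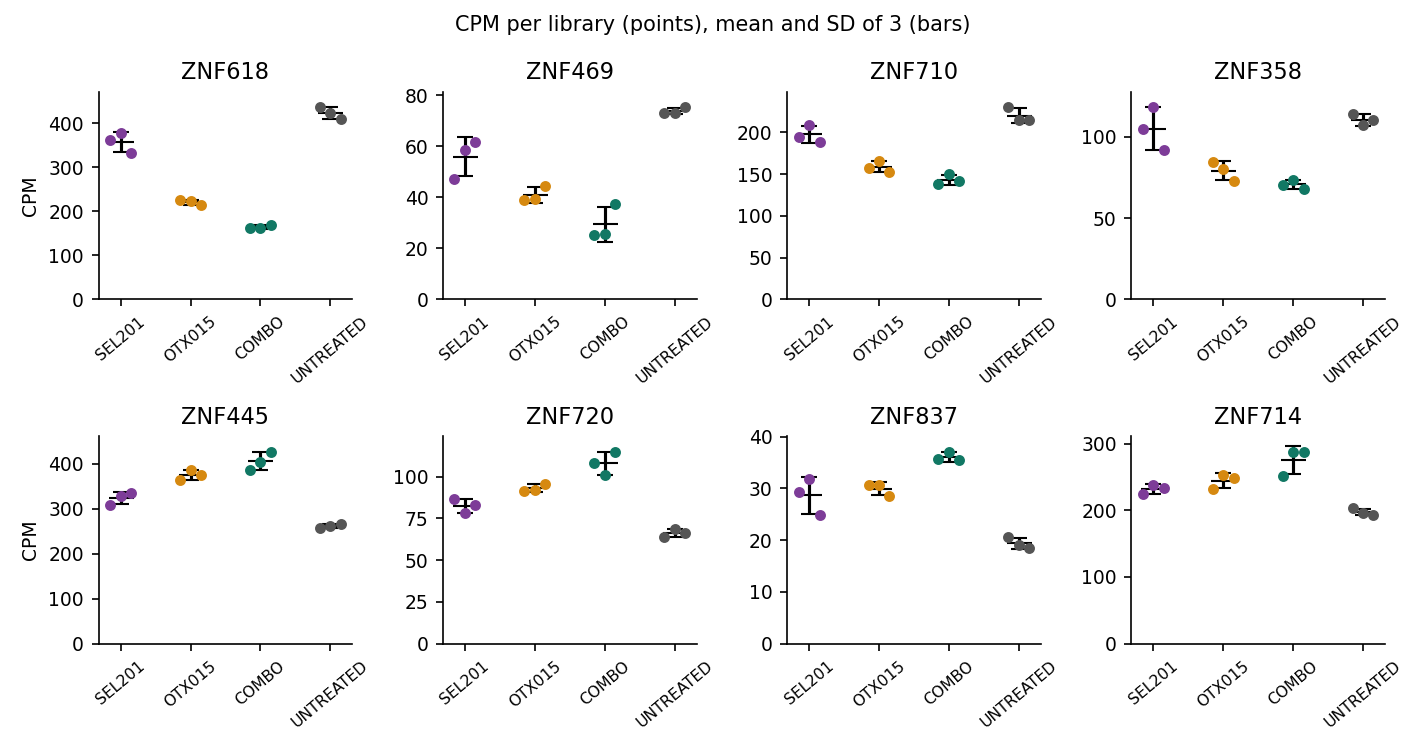
CPM of 8 numbered ZNF genes in each library (points), with the mean and SD of 3 libraries (bars), for SEL201, OTX015, COMBO and UNTREATED. The top row shows genes that fell (ZNF618 at 164 CPM in COMBO and 423 CPM in UNTREATED on average) and the bottom row genes that rose (ZNF445 at 406 CPM in COMBO and 262 CPM in UNTREATED).

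The largest rise was that of ZNF837, with 29.3, 31.8 and 24.8 CPM in SEL201, 30.7, 30.6 and 28.5 CPM in OTX015, and 35.7, 37.1 and 35.4 CPM in COMBO libraries, against 20.6, 19 and 18.5 CPM in UNTREATED libraries. All treated libraries lay above all UNTREATED ones. By edgeR, its level rose by 0.56 ± 0.10 on the log2 scale with SEL201 (SE, adjusted p = 0.00086), 0.63 ± 0.09 with OTX015 and 0.90 ± 0.09 with COMBO (adjusted p = 1.8e-06). ZNF720, whose longest coding frame holds no finger, had 86.8, 78.4 and 82.9 CPM in SEL201, 91.2, 92.3 and 95.9 CPM in OTX015, and 108, 101 and 115 CPM in COMBO libraries, against 63.9, 68.9 and 66.1 CPM in UNTREATED libraries. It rose by 0.32, 0.49 and 0.71 on the log2 scale, with no treated library as low as an UNTREATED one.

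ZNF445, a KRAB zinc finger protein that protects genomic imprints, had the largest rise with SEL201 and with COMBO among genes with a KRAB motif. With OTX015, ZNF559 had 0.54 and ZNF445 0.52. ZNF445 had 309, 328 and 334 CPM in SEL201, 363, 386 and 376 CPM in OTX015, and 386, 404 and 427 CPM in COMBO libraries, against 258, 262 and 266 CPM in UNTREATED libraries. Its log2 change was 0.30 ± 0.04 with SEL201 (adjusted p = 0.0003), 0.52 ± 0.04 with OTX015 (adjusted p = 5.3e-07) and 0.63 ± 0.04 with COMBO (adjusted p = 3.4e-08). ZNF714 had 224, 238 and 233 CPM in SEL201, 232, 253 and 249 CPM in OTX015, and 251, 287 and 288 CPM in COMBO libraries, against 203, 196 and 193 CPM in UNTREATED libraries. It was called higher in all 3 comparisons, at 0.23, 0.31 and 0.48.

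Other large rises with COMBO were ZNF70 (0.61), ZNF559 (0.52), ZNF235 (0.51) and ZNF627 (0.50). ZNF28 rose by 0.44 and ZNF138 by 0.48 with OTX015. With SEL201, ZNF14, ZNF333, ZNF703 and ZNF844 were called higher at 0.20 to 0.23 and ZNF302 lower at -0.17, all with adjusted p of 0.04 to 0.048. Each of these 5 calls was lost in 6 to 10 of the 12 fits that left out 1 library, SEL201 replicate 1 and UNTREATED replicates 1 and 2 among them (adjusted p up to 0.19).

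KRAB genes with a described target or role were taken from a list of 18, of which 16 were measured. With COMBO, 9 of the 16 were called higher and 0 lower, with a median log2 change of 0.15, and with OTX015 3 were called higher and 0 lower, with a median of 0.12. The higher calls are 56.2% of the list with COMBO and 18.8% with OTX015, where 28.3% and 23.3% of all genes were called higher. Lower calls took 29.6% and 24.7% of all genes. With the replicate block these counts were 12 and 8 higher, and 0 lower in both. The block called 2876 and 2544 of all 8579 genes higher, and 2934 and 2568 lower. ZNF10, the protein in which the KRAB repressor domain was first studied, had 46.8, 42.1 and 41.4 CPM with COMBO and 34.1, 36.0 and 32.0 CPM in UNTREATED libraries, and it rose by 0.35 ± 0.07. ZNF274, which brings H3K9 methylation to zinc finger gene clusters, was called higher with COMBO at 0.20 ± 0.08 (adjusted p = 0.044). ZNF184, ZNF268, ZNF304, ZNF331 and ZNF57 were called higher with COMBO at 0.11 to 0.27. Of the 9 genes, ZNF445 and ZNF10 stayed past the threshold in all 12 fits that left out 1 library. ZNF304 passed in none of them. ZNF274 lost its call without UNTREATED replicates 1 or 2, OTX015 replicate 3, or COMBO replicates 1 or 3 (adjusted p up to 0.17), and ZNF184 without UNTREATED replicates 1 or 3 or COMBO replicates 1 or 2 (up to 0.08). ZNF331 lost it without UNTREATED replicates 1 or 2, SEL201 replicate 1, OTX015 replicate 1 or COMBO replicate 3 (up to 0.21). ZNF268 lost it without UNTREATED replicate 2 or COMBO replicate 1 (up to 0.071), and ZNF57 without UNTREATED replicate 3 or COMBO replicate 3 (up to 0.085).

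ZNF140, ZNF350 and ZNF420 passed with COMBO in the fit with the replicate block and not in the main fit. ZNF140 also passed without UNTREATED replicate 1 (edgeR adjusted p = 0.037), and ZNF350 with the compared groups only. ZNF350, a partner of BRCA1, had 50.8, 48.9 and 49.6 CPM with COMBO and 42.3, 44.2 and 43.0 CPM in UNTREATED libraries, with a log2 change of 0.20 ± 0.10 (adjusted p = 0.11). ZNF141 and ZNF202 had log2 changes of 0.07 and -0.05 with COMBO, and neither was called. ZNF263, the most highly counted of the 318 genes, had 390, 412 and 378 CPM with COMBO and 386, 394 and 385 CPM in UNTREATED libraries, a difference within the spread (log2 change 0.02 ± 0.04, adjusted p = 0.69).

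Regulators without a KRAB domain were taken from a list of 25, of which 10 were among the 318. Called higher with OTX015 and with COMBO were ZNF76, ZNF292, ZNF608 and ZNF703, and called lower were ZNF219 and ZNF395. Among all genes, 23.3% were called higher and 24.7% lower with OTX015, and 28.3% higher and 29.6% lower with COMBO. ZNF703, a corepressor known from luminal breast cancer, had 128, 147 and 140 CPM with COMBO and 110, 107 and 108 CPM in UNTREATED libraries, and it rose by 0.35 ± 0.07. ZNF76 rose by 0.26 ± 0.05, to 167 ± 0.372 CPM with COMBO, against 140 ± 3.55 CPM in UNTREATED libraries. Its close relative ZNF143, which activates promoters and anchors chromatin loops, had 263, 254 and 246 CPM with COMBO and 283, 276 and 256 CPM in UNTREATED libraries. That difference was not called (log2 change -0.10 ± 0.05, adjusted p = 0.091), although it passed with the replicate block. The ZNF292 call with COMBO was lost in 7 of 12 fits that left out 1 library: UNTREATED replicates 2 or 3, SEL201 replicate 2, OTX015 replicates 1 or 2, or COMBO replicates 1 or 3 (adjusted p up to 0.19). ZNF516, ZNF521 and ZNF711 had log2 changes of 0.01, 0.01 and -0.04 with COMBO, and none was called.

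Of 13 zinc finger genes with roles in RNA, the ribosome, the spindle or SUMO, 3 were among the 318, and none was called in any comparison with UNTREATED. ZNF346, which binds double-stranded RNA, had a log2 change of 0.01 ± 0.05 with COMBO, ZNF330 one of -0.08 ± 0.05, and ZNF830, a splicing factor, one of -0.12 ± 0.05. ZNF830 was called lower with SEL201 and with COMBO when the replicate block was used. Of 33 KRAB corepressor and H3K9 silencing genes, 3 were among the 8579 genes of the table, while TRIM28 and SETDB1 were not analysed here. A gene's absence from the table was not read as low expression. MTA3 had 249, 228 and 230 CPM with COMBO and 319, 325 and 299 CPM in UNTREATED libraries, and SUV39H1, an H3K9 methyltransferase, had 308, 305 and 306 CPM with COMBO and 339, 309 and 362 CPM in UNTREATED libraries. Both were called lower with OTX015 and with COMBO, and SUV39H2 was not called.

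COMBO was also compared with each agent. Against SEL201, 57 of the 318 genes were called higher and 31 lower, which are 17.9% and 9.75%, where 18.8% of all genes were called higher and 21.2% lower. With the replicate block these counts were 96 higher and 54 lower, where 2233 of all 8579 genes were called higher and 2351 lower. ZNF618 fell by 1.12 ± 0.05 and ZNF469 by 0.93 ± 0.14, and ZNF720, ZNF222, ZNF799, ZNF468, ZNF559 and ZNF608 rose by 0.37 to 0.39. ZNF92 had 271, 261 and 266 CPM with COMBO and 213, 209 and 210 CPM with SEL201, and it rose by 0.34 ± 0.04 (adjusted p = 7.8e-06). ZNF70, with a log2 change of 0.39, lost its call without SEL201 replicate 1, SEL201 replicate 3 or COMBO replicate 3 (adjusted p up to 0.082). ZNF792, at -0.44, lost it without SEL201 replicate 2, COMBO replicate 1 or COMBO replicate 3 (adjusted p up to 0.14). ZNF468 shares 99.1% and ZNF799 19.2% of their windows with other transcripts, and both are uncertain.

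Against OTX015, 1 gene was called higher and 3 lower with COMBO, or 0.314% and 0.943%, where 2.9% of all genes were called higher and 4.01% lower. ZNF618 was lower in COMBO by 0.43 ± 0.05 (adjusted p = 0.00019), with 163, 161 and 169 CPM against 225, 223 and 214 CPM in OTX015 libraries. ZNF395 was lower by 0.27 ± 0.05 and ZNF469 by 0.48 ± 0.14, and ZNF511, which shares 21.5% of its windows with other transcripts, was higher by 0.14 ± 0.04. The ZNF469 call (adjusted p = 0.048) was lost in 8 of 12 fits that left out 1 library: UNTREATED replicates 1 or 2, SEL201 replicate 2, any OTX015 replicate, or COMBO replicates 1 or 2 (adjusted p up to 0.17). The ZNF511 call was lost without any of OTX015 replicates 1 to 3, COMBO replicate 1 or COMBO replicate 3 (adjusted p up to 0.097). With the replicate block 16 genes were called higher and 15 lower, where 861 of all 8579 genes were called higher and 1047 lower.

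The interaction, the log2 change with COMBO less those with SEL201 and with OTX015, was past the threshold for 0 of the 318 genes in either direction by edgeR, where 0.21% of all genes were called higher and 0.0699% lower. At an unadjusted p under 0.05 there were 15, where there were 787 among all 8579 genes. DESeq2 called 0 of the 318 higher and 1 lower, where it called 87 of all genes higher and 32 lower. With the replicate block, ZNF543 and ZNF641 were called higher, and ZNF445, ZNF618, ZNF695, ZNF704 and ZNF784 lower, where 345 of all 8579 genes were called higher and 234 lower. These genes were named after their values were seen. ZNF704 averaged 43.1 ± 1.78 CPM in SEL201, 45.2 ± 5.47 CPM in OTX015, 36.1 ± 1.06 CPM in COMBO and 34.8 ± 7.04 CPM in UNTREATED libraries (SD, n = 3 each), and its interaction was -0.63 ± 0.17 (adjusted p = 0.19 without the block and 0.00096 with it). For ZNF445 the log2 changes were 0.30, 0.52 and 0.63 with SEL201, OTX015 and COMBO, and its interaction was -0.19 ± 0.06 (adjusted p = 0.31 without the block and 0.011 with it).

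Among the abundant genes, 3 of the 5 with the highest mean counts were not called against UNTREATED. ZNF561 had 374, 368 and 362 CPM with COMBO and 368, 376 and 377 CPM in UNTREATED libraries, and ZNF791 had 388, 389 and 379 CPM with COMBO and 365, 378 and 365 CPM in UNTREATED libraries, neither called. Among the smallest COMBO changes were those of ZNF473, which takes part in histone mRNA processing, ZNF584 and ZNF669, each with a log2 change of 0.00. ZNF544 was called higher with COMBO at 0.19 ± 0.05 and ZNF777 lower at -0.23 ± 0.05.

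The 59 numbered ZNF genes with a mean count under 500 had 11 higher and 1 lower call with OTX015, and 17 higher and 5 lower with COMBO, with median log2 changes of 0.11 and 0.16. Other zinc finger families had the following counts. For these and the 59 genes, the shares of all genes to compare were 23.3% higher and 24.7% lower with OTX015. With COMBO those shares were 28.3% higher and 29.6% lower, and no family was tested against them. The SCAN family had 5 of 19 genes higher and 3 lower with OTX015, and 8 higher and 4 lower with COMBO. The BTB family, which pairs fingers with a dimerisation domain, had 6 of 33 higher and 9 lower with OTX015, and 7 higher and 9 lower with COMBO. Of 14 ZFP genes, 5 were higher and 4 lower with OTX015, and 5 higher and 6 lower with COMBO. Of 33 ZNF genes with a letter after the number, 9 were higher and 5 lower with OTX015, and 15 higher and 8 lower with COMBO. KLF and SP genes, which bind GC-rich promoter boxes, had 2 of 13 higher and 6 lower with OTX015, and 3 higher and 7 lower with COMBO.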

How the data were processed

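Poly(A) RNA was sequenced as stranded paired 150-base reads, per the labels' protocols. Per the submitters' processing notes, the genome build was hg19 and the tools included STAR 2.5.4b, featureCounts, SAMtools 1.9, DESeq2, Trimmomatic and FastQC. The deposited table holds the authors' raw counts per gene, with the gene annotation and strand setting not given in the sources used here. From these counts, edgeR 4.0.16 in R 4.3.3 (TMM, filterByExpr, quasi-likelihood test, all 12 libraries, Benjamini-Hochberg over 8579 genes) gave 6 contrasts. CPM uses TMM effective library sizes. The code was tested on simulated data. The main fit used the group only and did not pair libraries, because the labels do not state that replicate numbers pair them. Only the alternative fit with the replicate block used the numbers. It was added because deviations from group means correlated at 0.26 to 0.57 in all 18 same-number pairs and at -0.46 to 0.19 in 36 others.

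KRAB (7 or more of 10 fixed positions), fingers and gene order come from GENCODE v29, and promoters from RefSeq, matched by symbol, with 42 genes unmatched. No coordinates were converted between builds. Genes were named by largest change per contrast, role list, highest or lowest count, and smallest COMBO change. Exceptions are stated. The members and lists were chosen with earlier results of these data known. Alternatives were other size factors, filters, DESeq2 1.42.0, the replicate block, the compared groups alone, and libraries left out. The other filters kept the same 8579 genes, so they could not change a call.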

Additional observations from a re-analysis of the deposited data

How the results depend on the processing

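No call against UNTREATED of a gene named here changed direction under any alternative run. With 1 library left out, the COMBO log2 change of 8 named genes that were not called crossed 0 (ZNF263, ZNF346, ZNF473, ZNF516, ZNF521, ZNF584, ZNF669 and ZNF711), and so did the median of the 318 genes for COMBO against OTX015 (-0.004 to 0.008). Against UNTREATED, SEL201 called 44 genes higher and 27 lower with the replicate block, 8 higher with the compared groups only, 10 higher without the 4 libraries numbered 3, and 15 lower by DESeq2. Leaving out 1 library gave 8 to 14 higher and 3 to 8 lower. COMBO against SEL201 gave 96 higher and 54 lower with the replicate block. COMBO against OTX015 gave 2 higher with RLE size factors, 0 higher with the compared groups only, 6 higher and 5 lower by DESeq2, 16 higher and 15 lower with the replicate block, and 0 to 3 higher with 1 library left out. The interaction gave 2 higher and 5 lower with the replicate block and 1 lower by DESeq2. Over all 8579 genes, DESeq2 called 945 higher and 1067 lower with SEL201 against UNTREATED. It called 369 higher and 468 lower for COMBO against OTX015, and 87 higher and 32 lower for the interaction. The compared groups only gave 677 higher with SEL201 against UNTREATED and 185 for COMBO against OTX015. RLE size factors gave 256 higher for COMBO against OTX015. Without the 4 libraries numbered 3, SEL201 against UNTREATED gave 789 higher. The cause of these differences was not tested. The block lowered the biological coefficient of variation to 4.35%, against 7.92% without it. OTX015 and COMBO against UNTREATED stayed within 1.5 times of their counts under every alternative run. Counts by class and run were recomputed under alternatives chosen after seeing the data. The table's totals are not sequencing depth. Small changes that were not called may be below what 3 libraries per group can show.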
